A study of Saccharomyces cerevisiae with 8 samples.

Results

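RNA polymerase II (RNAPII) peaks of 3 kb or more were examined in 4 peak lists from chromatin immunoprecipitation and sequencing (ChIP-seq) of budding yeast. The members were chosen by width alone, as every peak whose end minus start was at least 3000 bp, and they numbered 656 of 4420 peaks. The widths of these peaks are therefore a description, and they carry no test against narrower peaks. The lists came from 2 Tfg1-K60,61R-HA and 2 Tfg1-HA cultures of the W303a background, grown at 30 °C in synthetic complete medium. Both strains express HA-tagged Tfg1, the larger TFIIF subunit, where TFIIF is a general initiation factor that accompanies RNAPII to promoters, and in the first strain lysines 60 and 61 are arginine, which impairs SUMO attachment to Tfg1. That strain carries, according to the study, another missense substitution elsewhere in Tfg1, so the lysine changes and the second substitution cannot be told apart. Each list was called from 1 immunoprecipitate, made with an antibody against the carboxy-terminal domain of the largest RNAPII subunit, with input chromatin as background. The lists hold no read counts, so the depth reached by each library is unknown.

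RNAPII moves along the transcribed strand from promoter to terminator, so its ChIP signal normally follows the body of an active gene. Yeast genes are short and closely packed. A long peak can hence arise over 1 long gene, over several active neighbours that lie closer together than the caller separates, or over a Ty retrotransposon, a mobile element that is copied through RNA and flanked by long terminal repeats. A peak does not record strand, so the ORFs on both strands under a peak contribute to it without being told apart.

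The names carried inside the lists are at odds with the sample labels. Replicate 1 of each genotype spells the gene name in upper case, and replicate 2 of each spells it in lower case, the yeast convention for a mutant allele. The name under which each replicate 2 list was deposited also adds the letter m to the gene name, unlike those of replicate 1. Were these names to follow genotype, Tfg1-K60,61R-HA replicate 1 would swap labels with replicate 2 of Tfg1-HA. The labels were kept, and each direction below is one between lists as labelled. The list labelled Tfg1-K60,61R-HA replicate 1 also held a copy of all 894 peaks of Tfg1-K60,61R-HA replicate 2, which was removed.

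Some wide peaks of 1 list were interrupted in the others by gaps centred between divergent genes, where promoters lie. A break point is a stretch without a peak in 1 list that lies inside a wide peak of another list. Overlapping stretches of several lists were joined into 1 break point. Of 18 break points with gaps in 3 lists, 6 had their centre between divergent ORFs, none of them in Ty sequence, and the others had it in ORFs. These 6 are shown, and in each of the 6 the list with 1 unbroken peak was Tfg1-HA replicate 1. The genes flanking them include SMT3, the gene for SUMO itself, HSP150, a cell wall protein, HEM13, an enzyme of heme synthesis, ORM2, a regulator of sphingolipid synthesis, and RPL18B, a ribosomal protein. The central 200 bp of the part of each gap that lies between the ORFs is shown, in the R64 reference (the sacCer3 build, from RefSeq) on the plus strand, because these stretches were without a peak in 3 lists and inside a wide peak of the other. Between NRG1 and HEM13, replicate 2 of each genotype had a further gap. They were chosen after their values were seen. Capitals mark TATAA on either strand.
GNP1 to SMT3, chrIV:1468877-1469076: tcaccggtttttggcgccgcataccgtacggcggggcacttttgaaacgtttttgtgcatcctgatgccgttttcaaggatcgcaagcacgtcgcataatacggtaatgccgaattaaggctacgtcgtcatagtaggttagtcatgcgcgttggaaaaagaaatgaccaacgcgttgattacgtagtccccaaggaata
NRG1 to HEM13, chrIV:543905-544104: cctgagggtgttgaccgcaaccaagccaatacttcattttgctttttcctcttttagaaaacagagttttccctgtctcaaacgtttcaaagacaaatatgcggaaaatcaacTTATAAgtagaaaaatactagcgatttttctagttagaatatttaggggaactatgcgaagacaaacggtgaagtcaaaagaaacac
PIR5 to HSP150, chrX:119611-119810: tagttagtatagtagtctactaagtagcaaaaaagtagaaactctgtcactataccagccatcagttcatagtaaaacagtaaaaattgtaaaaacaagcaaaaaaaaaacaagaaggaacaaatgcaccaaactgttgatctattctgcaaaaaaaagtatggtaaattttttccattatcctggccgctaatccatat
DIC1 to ORM2, chrXII:828253-828452: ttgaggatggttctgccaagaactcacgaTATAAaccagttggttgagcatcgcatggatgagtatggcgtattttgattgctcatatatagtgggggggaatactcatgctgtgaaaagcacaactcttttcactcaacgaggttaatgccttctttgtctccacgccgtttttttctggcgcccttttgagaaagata
RPL18B to TOS6, chrXIV:65022-65221: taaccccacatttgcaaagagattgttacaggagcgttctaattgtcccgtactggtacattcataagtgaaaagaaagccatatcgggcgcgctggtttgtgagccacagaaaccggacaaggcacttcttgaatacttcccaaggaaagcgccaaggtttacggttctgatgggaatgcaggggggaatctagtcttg
YNL058C to OCA2, chrXIV:516881-517080: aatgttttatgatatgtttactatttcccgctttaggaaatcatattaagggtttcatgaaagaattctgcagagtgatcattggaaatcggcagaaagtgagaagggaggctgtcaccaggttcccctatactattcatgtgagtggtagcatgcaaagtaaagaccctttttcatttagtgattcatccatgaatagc
TATAA on either strand was found in 2 of these 6 windows, NRG1 to HEM13 and DIC1 to ORM2, and in 52.6% of 1417 windows of 200 bp at the centres of divergent intergenic stretches across the genome. The match is a description of these letters only. The gaps common to the 3 lists measured 892 bp at GNP1 to SMT3, 874 bp at NRG1 to HEM13, 886 bp at PIR5 to HSP150, 1286 bp at DIC1 to ORM2, 949 bp at RPL18B to TOS6 and 960 bp at YNL058C to OCA2. At DIC1 to ORM2 and YNL058C to OCA2 the ORFs lie 856 and 535 bp apart, so at least those gaps also ran into flanking ORFs. No gap between neighbouring peaks was shorter than 900 and 855 bp in Tfg1-K60,61R-HA and 885 and 850 bp in Tfg1-HA. Stretches without signal below about that length could thus lie unseen inside any wide peak.

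**Figure D1:**
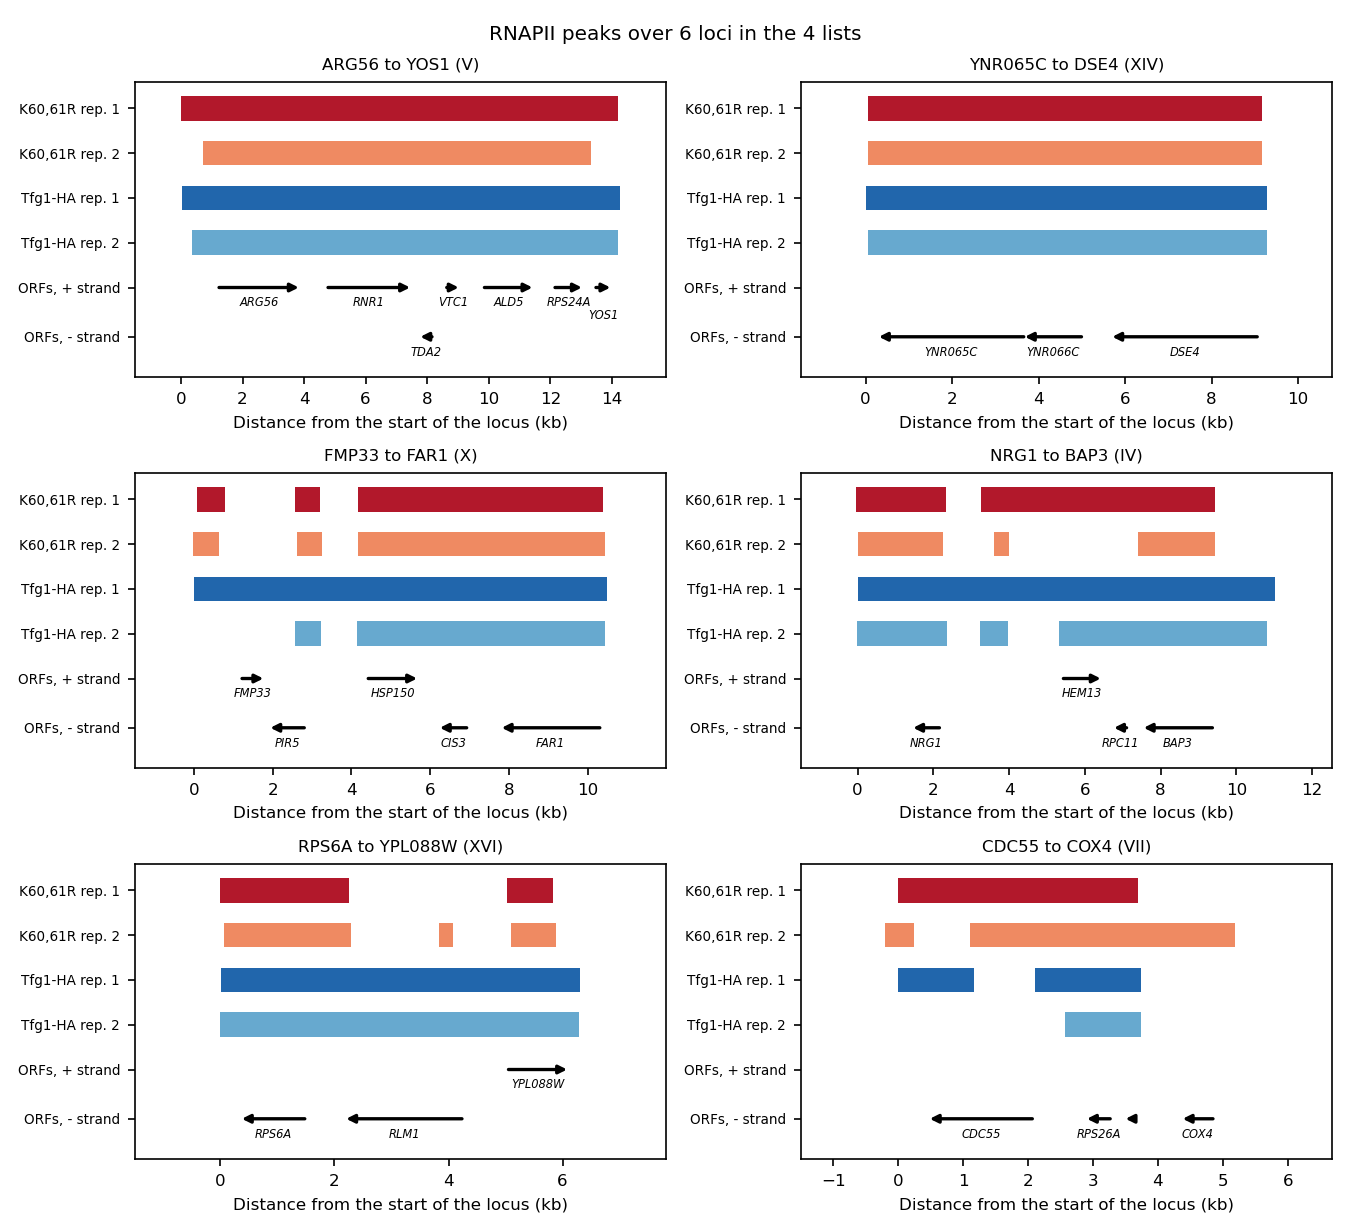
Peaks of the 4 lists (bars, lists labelled at the left) over 6 loci, with ORFs as arrows in the direction of transcription and distance from the start of the locus in kb on the horizontal axis. The loci on chromosomes V and XIV are covered by 1 peak in every list. The loci on chromosomes X and IV are 1 peak in Tfg1-HA replicate 1 and 2 or 3 peaks in the other lists. The locus on chromosome XVI is 1 peak in both Tfg1-HA lists, and that on chromosome VII is wide in both Tfg1-K60,61R-HA lists only.

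Wide peaks were a minority of each list but held a large share of its covered length. There were 173 and 105 wide peaks in Tfg1-K60,61R-HA, against 208 and 170 in Tfg1-HA. As a share of each list's peaks this was 15.8% and 11.7% in Tfg1-K60,61R-HA (95% Wilson intervals 13.7 to 18.0% and 9.80 to 14%) and 16.5% and 14.5% in Tfg1-HA (14.6 to 18.7% and 12.6 to 16.7%). Intervals of this kind cover counting error only. Tfg1-K60,61R-HA replicate 2 stood lowest, and replicate 1 of the same genotype lay between the Tfg1-HA lists, so the groups overlapped. The mean was 139 ± 48.1 wide peaks in Tfg1-K60,61R-HA and 189 ± 26.9 in Tfg1-HA (SD, n = 2 each), a difference of -50 that was within the spread of the replicates (two-sided exact permutation test, p = 0.667, where the smallest p that 2 lists against 2 allow is 0.333). Such p-values measure only the spread between these lists.

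The length under wide peaks followed the same order. It was 866 and 462 kb in Tfg1-K60,61R-HA, against 1003 and 784 kb in Tfg1-HA, and the means of 664 ± 286 and 894 ± 155 kb were not separated (SD, n = 2 each, exact permutation p = 0.667). This was 45.6% and 34.6% of all covered length in Tfg1-K60,61R-HA, against 46.2% and 41.9% in Tfg1-HA, a difference in means of -3.95 percentage points (exact permutation p = 0.667). The median wide peak measured 4537 and 3886 bp in Tfg1-K60,61R-HA, against 4294.5 and 4101 bp in Tfg1-HA. Peaks of 5 kb or more numbered 67 and 23 in Tfg1-K60,61R-HA, against 66 and 48 in Tfg1-HA. The ranked widths show that Tfg1-K60,61R-HA replicate 2 lay below the other 3 lists at every rank it reached, while Tfg1-K60,61R-HA replicate 1 ran close to Tfg1-HA replicate 1.

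**Figure D2:**
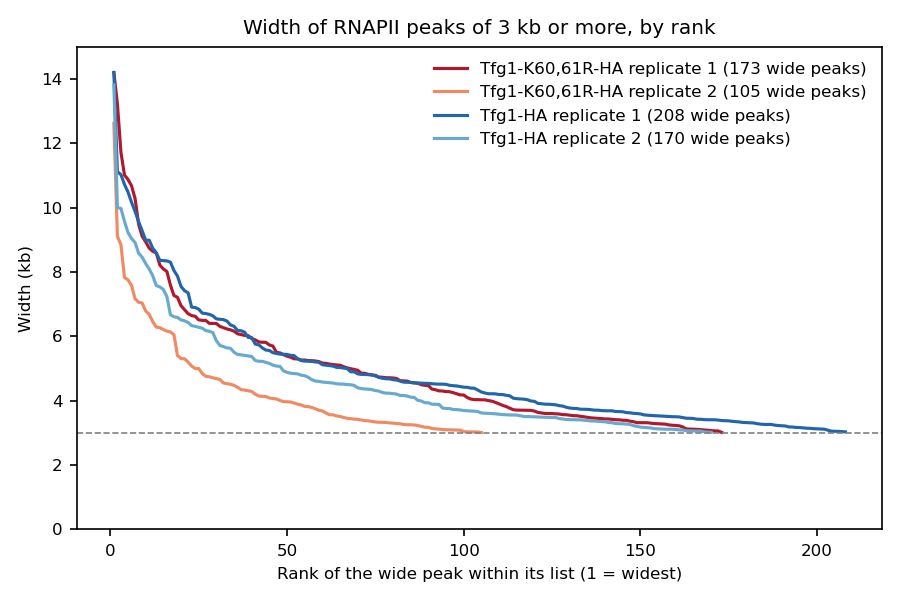
Width in kb of each wide peak (vertical axis) against its rank within its list (horizontal axis), 1 line per list, with the 3 kb minimum dashed. The widest peak is 14203 and 12623 bp in Tfg1-K60,61R-HA and 14210 and 13820 bp in Tfg1-HA, and the Tfg1-K60,61R-HA replicate 2 line ends first, at 105 peaks.

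The width minimum fell within a continuous range of widths. In Tfg1-K60,61R-HA replicate 1, the peaks just inside were EFT1, translation elongation factor 2 (3009 bp), and RPS19B to RPL18B (3053 bp), and those just outside were RDT1 (2992 bp) and YNK1 to YET1 (2990 bp). In Tfg1-K60,61R-HA replicate 2, TOS1 to YSY6 (3004 bp) and INA1 to PUN1 (3018 bp) were inside, and SFT1 to RPL14A (2994 bp) and the exoglucanase gene EXG1 (2986 bp) outside. In Tfg1-HA replicate 1, SND1 (3025 bp) and RDT1 (3034 bp) were inside, and VPH1 (2991 bp) and NPT1 to RPB10 (2987 bp) outside. In Tfg1-HA replicate 2, the chaperone gene SSA2 (3012 bp) and TYE7 (3016 bp) were inside, and RDT1 (2999 bp) and SWF1 (2997 bp) outside. RDT1 thus sat on either side of the minimum in lists in which its peak differed by less than 50 bp.

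The authors' fold, the enrichment over the input-derived background averaged over a region, comes from the same measurement as the width and is given as a description. Its median over wide peaks was 1.98 and 1.90 in Tfg1-K60,61R-HA and 2.17 and 2.2 in Tfg1-HA, against 1.40 and 1.45, and 1.46 and 1.44, over the narrower peaks of the same lists. The highest folds belonged to narrower peaks, at 21.8 and 15.9 in Tfg1-K60,61R-HA and 21.8 and 15.4 in Tfg1-HA. Among wide peaks the highest fold was 11.8 at SUI2 to TDH2 in Tfg1-K60,61R-HA replicate 1, 11 at TRX1 to PDC1 in Tfg1-K60,61R-HA replicate 2, 11.7 at ZRT1 in Tfg1-HA replicate 1 and 10.9 at TRX1 to PDC1 in Tfg1-HA replicate 2. TDH2 encodes a glyceraldehyde-3-phosphate dehydrogenase, PDC1 the main pyruvate decarboxylase and ZRT1 the high-affinity zinc transporter.

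Most wide peaks lay over several ORFs, and these lay on both strands about as often as on 1. An ORF was counted when at least 50% of its length lay inside the peak. In Tfg1-K60,61R-HA, 134 of 173 and 76 of 105 wide peaks held 2 or more ORFs, against 168 of 208 and 126 of 170 in Tfg1-HA, and the largest number under 1 peak was 7, 6, 7 and 7 in the same order. ORFs of both strands lay under 51.5% and 52.6% of these peaks in Tfg1-K60,61R-HA, against 54.8% and 54.0% in Tfg1-HA. Of neighbouring ORF pairs under wide peaks, 56.9% and 60% pointed the same way (tandem) in Tfg1-K60,61R-HA, against 53.7% and 55.8% in Tfg1-HA, where 48.2% of all 5869 neighbouring pairs in the annotation are tandem. Convergent pairs were 23.2% and 20.8% in Tfg1-K60,61R-HA and 19.9% and 21.2% in Tfg1-HA, below the 25.8% of the annotation in each list. Divergent pairs were 19.9% and 19.2% in Tfg1-K60,61R-HA, and 26.3% and 23.1% in Tfg1-HA, beside 26.0% in the annotation.

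In all, 407 and 232 of 6002 ORFs lay under wide peaks of Tfg1-K60,61R-HA, against 506 and 394 under those of Tfg1-HA. The groups overlapped, with means of 319.5 ± 124 and 450 ± 79.2 ORFs (SD, n = 2 each, exact permutation p = 0.667). Per kb, wide peaks held fewer ORFs than narrower peaks of the same list, at 0.470 and 0.502 ORFs per kb in Tfg1-K60,61R-HA and 0.504 and 0.502 in Tfg1-HA, against 0.580 and 0.605, and 0.575 and 0.577, under the narrower peaks. The difference averaged -0.0894 ± 0.0194 ORFs per kb (SD, n = 4 lists) and had the same sign in 4 of 4 lists. A two-sided exact sign-flip permutation test was at the smallest p that 4 lists allow. Width both selected the peaks and is the denominator here, and a partly covered ORF can count as a whole. For ORFs per kb the test therefore cannot separate gene density from how peaks were chosen and ORFs counted. The ORF densities are given as a description. The lists share loci, so they are not independent. The GC content was 38.6% and 38.9% under wide peaks of Tfg1-K60,61R-HA and 38.8% and 38.8% under those of Tfg1-HA, higher than under narrower peaks by 0.968 ± 0.0558 percentage points (SD, n = 4 lists, higher in 4 of 4, same test and p), and the genome has 38.3%.

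Wide peaks of the 4 lists joined into 238 loci. A wide peak was present in all 4 lists at 85 loci, in 3 at 59, in 2 at 43 and in 1 at 51. The largest class after those in all 4 lists was wide in every list but Tfg1-K60,61R-HA replicate 2, with 44 loci, followed by 26 loci wide in Tfg1-HA replicate 1 only and 20 that were wide in the pair of Tfg1-HA lists alone. The opposite pattern, wide in both Tfg1-K60,61R-HA lists only, occurred at 2 loci. Paired instead by letter case, the upper-case lists alone shared 14 wide loci and the lower-case lists alone shared 1.

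The loci fell into 3 kinds, defined after the values were seen. At 32 loci at least 50% of the length was Ty or long terminal repeat sequence, at 59 loci 1 ORF filled at least 50%, and at 147 loci no ORF did. Of the Ty loci, 32 were wide in Tfg1-K60,61R-HA replicate 1 and 4 in replicate 2, against 19 and 18 in Tfg1-HA. The Ty loci thus differed more between the 2 Tfg1-K60,61R-HA lists than between genotypes. Of the loci filled by 1 ORF, 41 and 27 were wide in Tfg1-K60,61R-HA, against 48 and 40 in Tfg1-HA, and of the 147 others 100 and 74, against 139 and 112.

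**Figure D3:**
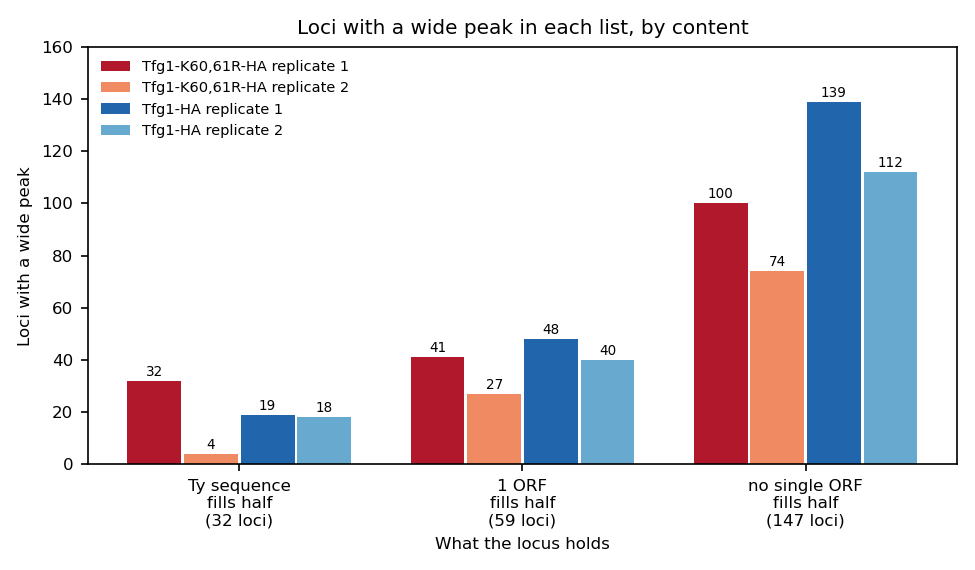
Number of loci with a wide peak (vertical axis) in each list (bars), for loci in which Ty sequence fills at least 50% of the length, those in which 1 ORF does, and the rest. The Tfg1-K60,61R-HA replicate 1 bar is the highest of the Ty loci, at 32, and the Tfg1-HA replicate 1 bar is the highest of the other kinds, at 48 and 139.

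Of 50 annotated Ty elements, 36 and 4 had at least 50% of their length in 1 wide peak in Tfg1-K60,61R-HA, against 19 and 14 in Tfg1-HA. Ty1, the most numerous family, accounted for 24 and 0 of its 31 elements in Tfg1-K60,61R-HA, against 9 and 10 in Tfg1-HA. Ty2 accounted for 12 and 4 of 13 in Tfg1-K60,61R-HA, against 10 and 4 in Tfg1-HA, and the 4 elements found in every list were Ty2. None of the 6 elements of the Ty3, Ty4 and Ty5 families lay under a wide peak in any list. The peak ranked 3 by width in Tfg1-K60,61R-HA replicate 1, chrIV:981119-992842, spanned a Ty2 and a Ty1 element over 11724 bp, with a fold of 1.40. It held 1 peak in Tfg1-K60,61R-HA replicate 2, and 2 and 4 peaks in Tfg1-HA. Copies of a Ty family share sequence, and reads from one copy can be placed at another, so a wide peak at a Ty locus does not by itself place RNAPII at that copy. The elements are those of the reference strain, and which of them W303a carries was not tested.

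Without the peaks of which at least 50% is Ty sequence, an alternative added after the data were seen, wide peaks numbered 141 and 101 in Tfg1-K60,61R-HA, against 187 and 153 in Tfg1-HA, and the groups no longer overlapped. All peaks of any width, with Ty peaks kept, numbered 1098 and 894 in Tfg1-K60,61R-HA, against 1257 and 1171 in Tfg1-HA, also without overlap. Whether the counts of wide peaks follow the size of each list was not tested. The ORFs under them numbered 341 and 227 in Tfg1-K60,61R-HA, against 466 and 356 in Tfg1-HA. For both measures the exact permutation p was 0.333, the smallest possible.

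The widest locus in each list was chrV:294173-308428, with ARG56, RNR1, VTC1, ALD5, RPS24A and YOS1 on the plus strand and TDA2 on the minus strand. ARG56 encodes enzymes of arginine synthesis, RNR1 the large subunit of ribonucleotide reductase, ALD5 a mitochondrial aldehyde dehydrogenase and RPS24A a ribosomal protein. A single peak covered it in every list, of 14203 and 12623 bp in Tfg1-K60,61R-HA, against 14210 and 13820 bp in Tfg1-HA. Its fold was 2.46 and 2.09 in Tfg1-K60,61R-HA, against 2.83 and 2.60 in Tfg1-HA. The narrower peak of Tfg1-K60,61R-HA replicate 2 stopped short of YOS1.

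Other wide loci held their width closely across lists. At chrXIV:750044-759328, over YNR065C, YNR066C and DSE4 on the minus strand, the peak measured 9113 and 9105 bp in Tfg1-K60,61R-HA, against 9285 and 9226 bp in Tfg1-HA (SD over the 4 lists 88.0 bp). DSE4 encodes a glucanase that acts in daughter cell separation. The peak over FKS1, the catalytic subunit of glucan synthase, measured 6493 and 6455 bp in Tfg1-K60,61R-HA, against 6540 and 6508 bp in Tfg1-HA. That over GLN1, glutamine synthetase, and its neighbours VMA13, SPO24 and ERV2 measured 4815 and 4753 bp in Tfg1-K60,61R-HA, against 4811 and 4787 bp in Tfg1-HA. FKS1 and GLN1 were chosen after their values were seen. Over the 85 loci wide in all 4 lists the SD of width had a median of 403 bp, and it was below 100 bp at 26.

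Several of the 15 widest loci broke up in 1 or more lists. At chrVII:798422-809543, over CYS4, PTI1 and CHO2 on the plus strand and MTR3, NSR1 and RTS3 on the minus strand, the widest peak measured 11014 and 8852 bp in Tfg1-K60,61R-HA, against 11122 and 9042 bp in Tfg1-HA. CYS4 encodes cystathionine beta-synthase and CHO2 a methyltransferase of phosphatidylcholine synthesis. Replicate 1 of each genotype had 1 peak there and replicate 2 had 2. At chrII:369811-381646, over NRG2, TIP1, BAP2, TAT1 and ALG14 on the minus strand and YBR071W on the plus strand, the widest of 2 peaks measured 8742 and 6681 bp in Tfg1-K60,61R-HA, against 8739 and 10003 bp in Tfg1-HA. BAP2 and TAT1 encode amino acid permeases. In 3 lists the break lay over ALG14, a gene of protein N-glycosylation, and in Tfg1-HA replicate 2 ALG14 was inside the peak. At chrVII:474101-483088, over LEU1 and PMA1, the plasma membrane proton pump, the widest peak measured 8938 and 7057 bp in Tfg1-K60,61R-HA, against 8988 and 8916 bp in Tfg1-HA.

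Both subunits of fatty acid synthase lay under wide peaks that were narrower in both Tfg1-K60,61R-HA lists. At FAS1, alone at chrXI:99239-107521 on the plus strand, the peak measured 7267 and 7037 bp in Tfg1-K60,61R-HA, against 8045 and 8263 bp in Tfg1-HA, with folds of 4.18 and 1.75, against 5.68 and 4.54. At FAS2 (chrXVI:104664-115398, with VMA11, NSL1 and SSO1) it measured 6951 and 6785 bp in Tfg1-K60,61R-HA, against 8305 and 9977 bp in Tfg1-HA. Both ORFs were covered over their whole length in every list, so the difference lay in the flanks. ACC1, acetyl-CoA carboxylase, which supplies the same pathway, was under a peak of 9483 bp in Tfg1-K60,61R-HA replicate 1 and 9564 and 9576 bp in Tfg1-HA, while its widest peak in Tfg1-K60,61R-HA replicate 2 was 1144 bp. ACC1 was chosen after its values were seen.

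**Figure D4:**
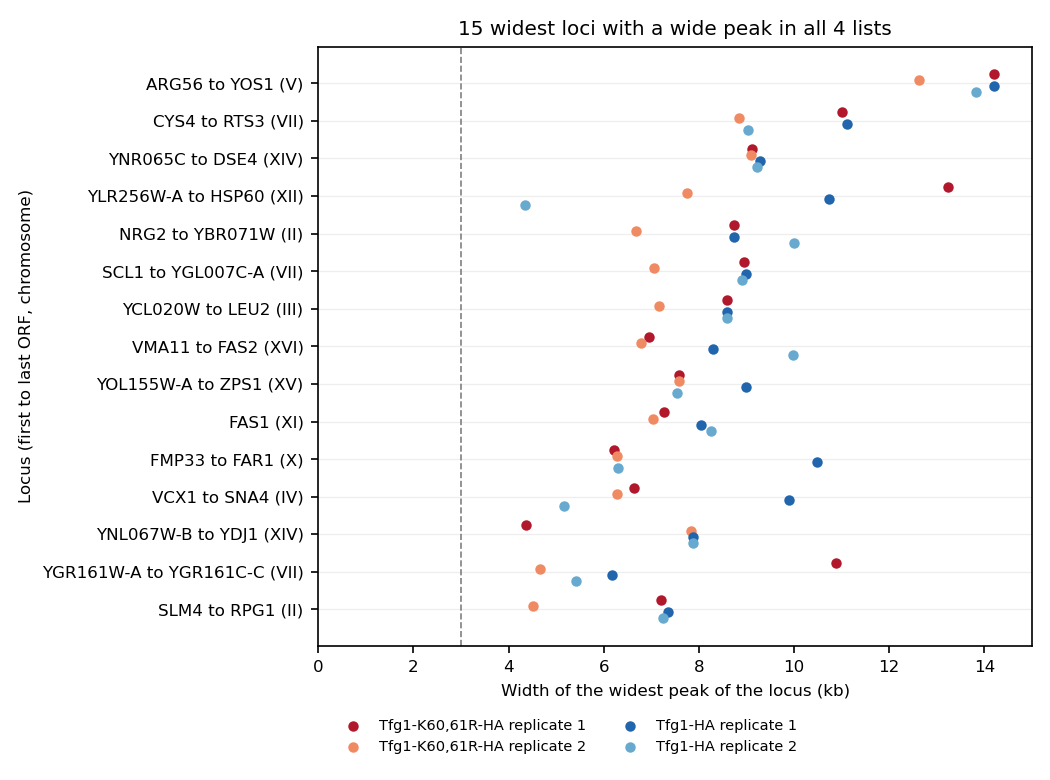
Width in kb of the widest peak in each list (points) at the 15 loci with the largest mean width among those wide in all 4 lists, with the 3 kb minimum dashed. The 4 points lie within 9105 to 9285 bp at YNR065C to DSE4, and spread over 4338 to 13235 bp at YLR256W-A to HSP60, a locus that includes Ty sequence.

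The remaining loci among the 15 widest showed each way in which lists can differ. At HSP150 and CIS3, cell wall proteins of the PIR family, with FMP33, PIR5 and FAR1 (chrX:116022-126508), Tfg1-HA replicate 1 had 1 peak of 10487 bp, while the widest peak was 6226 and 6270 bp in Tfg1-K60,61R-HA and 6308 bp in Tfg1-HA replicate 2. At RPL9B, SUN4, AQR1 and YDJ1 (chrXIV:499475-507376) the odd list was Tfg1-K60,61R-HA replicate 1, with 4357 bp, against 7827 bp in replicate 2 and 7871 and 7881 bp in Tfg1-HA. At SLM4, ECM33 and RPG1 (chrII:390916-398265) it was Tfg1-K60,61R-HA replicate 2, with 4509 bp, against 7211 bp in replicate 1 and 7350 and 7236 bp in Tfg1-HA. At HPF1 and ZPS1 (chrXV:26874-35869) and at VCX1 to SNA4, a locus around CDC48 (chrIV:232741-242624), it was again Tfg1-HA replicate 1, with 8988 and 9883 bp, and the other lists lay between 7536 and 7592 bp and between 5155 and 6643 bp. The 3 loci with Ty sequence were YLR256W-A to HSP60 (chrXII:651759-665000), with 13235 and 7755 bp in Tfg1-K60,61R-HA, against 10724 and 4338 bp in Tfg1-HA, the Ty2 element beside LEU2 (chrIII:84125-92728), with 8592 and 7166 bp against 8597 and 8585 bp, and a pair of Ty elements on chrVII:811614-822495, with 10879 and 4651 bp against 6172 and 5421 bp.

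Among the 85 loci wide in all 4 lists, both Tfg1-K60,61R-HA widths were below both Tfg1-HA widths at 44, and the reverse occurred at 0. The list with the narrowest peak was Tfg1-K60,61R-HA replicate 2 at 62 of these loci and Tfg1-HA replicate 1 at 0. Over all peaks joined between lists, which gave 1352 regions, both Tfg1-K60,61R-HA widths were below both Tfg1-HA widths in 42.1%, with a missing peak counted as 0 bp. Among the 238 regions with a wide peak it was 113, or 47.5%. Both Tfg1-K60,61R-HA widths were above both Tfg1-HA widths in 2.74% of all regions and in 4, or 1.68%, of those with a wide peak. The shares of the wide regions thus lay near those of all regions, and nothing particular to wide peaks is read from them.

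The 20 loci wide in both Tfg1-HA lists only included some split in Tfg1-K60,61R-HA and some covered by 1 narrower peak. In Tfg1-K60,61R-HA, 10 and 8 of them held 2 or more peaks, against 0 and 1 in Tfg1-HA, and 8 held 1 peak in both Tfg1-K60,61R-HA lists. The largest difference was at RPS6A, RLM1 and YPL088W (chrXVI:376915-383226), where the widest peak measured 2261 and 2235 bp in Tfg1-K60,61R-HA, against 6308 and 6280 bp in Tfg1-HA. RPS6A, a ribosomal protein gene, was covered over its whole length in Tfg1-K60,61R-HA replicate 1, while 2.86% of RLM1, which encodes a transcription factor of the cell wall integrity pathway, was covered there. At PHO8, CWC21 and KRE2 (chrIV:1418244-1422758) it measured 601 bp in Tfg1-K60,61R-HA replicate 1 with no peak in replicate 2, against 4510 and 4512 bp in Tfg1-HA. PHO8 encodes the vacuolar alkaline phosphatase. At KDX1, a paralog of the cell wall integrity MAP kinase SLT2 (chrXI:148851-152726), it measured 1267 and 1189 bp, against 3876 and 3751 bp.

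At GIT1 to YCR101C (chrIII:296612-303482) the widest peak measured 2384 and 1625 bp in Tfg1-K60,61R-HA, against 6845 and 4840 bp in Tfg1-HA, at KSS1 and BUD9 (chrVII:575548-579551) 1641 and 1392 bp, against 3886 and 4004 bp, and at PDE2 and PRT1 (chrXV:1012962-1017854) 2661 and 1555 bp, against 4893 and 4849 bp. KSS1 encodes a MAP kinase of filamentous growth, PDE2 the high-affinity cAMP phosphodiesterase and PRT1 a subunit of translation initiation factor eIF3. At HTZ1, the histone variant H2A.Z, and PLB3 (chrXV:303326-307892), it measured 2613 and 2752 bp in Tfg1-K60,61R-HA, against 4545 and 4564 bp in Tfg1-HA, and at MTR2 and ASH1 (chrXI:92485-96843) 2562 and 2500 bp, against 4211 and 4359 bp. ASH1 encodes the daughter-specific repressor of HO. At IRC7 (chrVI:262381-265870) it measured 1805 and 1568 bp in Tfg1-K60,61R-HA, against 3448 and 3487 bp in Tfg1-HA, and at GAP1, the general amino acid permease (chrXI:513354-517328), 2561 and 2504 bp, against 3975 and 3929 bp. At 7 of the 20 loci the peak exceeded 2500 bp in both Tfg1-K60,61R-HA lists as well. The smallest difference between the groups was at the histone pair HHF1 and HHT1 with IPP1 (chrII:254823-257967), which measured 2984 and 2790 bp in Tfg1-K60,61R-HA, against 3135 and 3085 bp in Tfg1-HA.

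The 2 loci wide in both Tfg1-K60,61R-HA lists only were on chromosomes VII and XVI. At CDC55, a regulatory subunit of protein phosphatase 2A, RPS26A and COX4, all on the minus strand (chrVII:145323-150504), the widest peak measured 3700 and 4079 bp in Tfg1-K60,61R-HA, against 1639 and 1167 bp in Tfg1-HA. RPS26A was covered in all 4 lists, while COX4, a subunit of cytochrome c oxidase, was covered in Tfg1-K60,61R-HA replicate 2 only. The fold of the widest peak was lower in Tfg1-K60,61R-HA, at 2.08 and 2.00, against 3.10 and 3.76 in Tfg1-HA. At PET20 and AIM44 (chrXVI:250286-254362) it measured 4046 and 4047 bp in Tfg1-K60,61R-HA, against 2750 and 2776 bp in Tfg1-HA, again with lower folds, of 1.39 and 1.42, against 1.93 and 1.95. The wider peaks were thus the ones with the lower mean enrichment.

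A wide peak of 1 list was often split into several peaks in another. For each ordered pair of lists, a wide peak was called split when 2 or more peaks of the other list overlapped it by at least 1 bp. Over all 12 ordered pairs, 338 of 1968 lookups were splits, or 17.2%, beside 3.44% of lookups of peaks of any width, a set in which most peaks are too short to hold 2 peaks and the gap between them. Wide peaks of Tfg1-K60,61R-HA replicate 1 were split in 23.7% of cases in Tfg1-K60,61R-HA replicate 2, 17.3% in Tfg1-HA replicate 1 and 26.6% in Tfg1-HA replicate 2. Those of Tfg1-K60,61R-HA replicate 2 were split in 3.81%, 1.90% and 9.52% of cases in the other Tfg1-K60,61R-HA list and in replicates 1 and 2 of Tfg1-HA. Where that list had a wide peak, the others thus mostly had 1 peak too.

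Wide peaks of Tfg1-HA replicate 1 were split in 15.4% of cases in Tfg1-K60,61R-HA replicate 1, 26.4% in Tfg1-K60,61R-HA replicate 2 and 24% in Tfg1-HA replicate 2. Those of Tfg1-HA replicate 2 were split in 13.5%, 18.8% and 7.65% of cases in Tfg1-K60,61R-HA replicates 1 and 2 and Tfg1-HA replicate 1. For Tfg1-HA replicate 2 the share split was lowest in its own replicate, and for the other 3 lists the share in the own replicate lay between those in the lists of the other genotype. The mean share split in the lists of the other genotype was 22% and 5.71% in Tfg1-K60,61R-HA, against 20.9% and 16.2% in Tfg1-HA, or 13.8 ± 11.5% and 18.5 ± 3.35% (SD, n = 2 each, exact permutation p = 1).

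**Figure D5:**
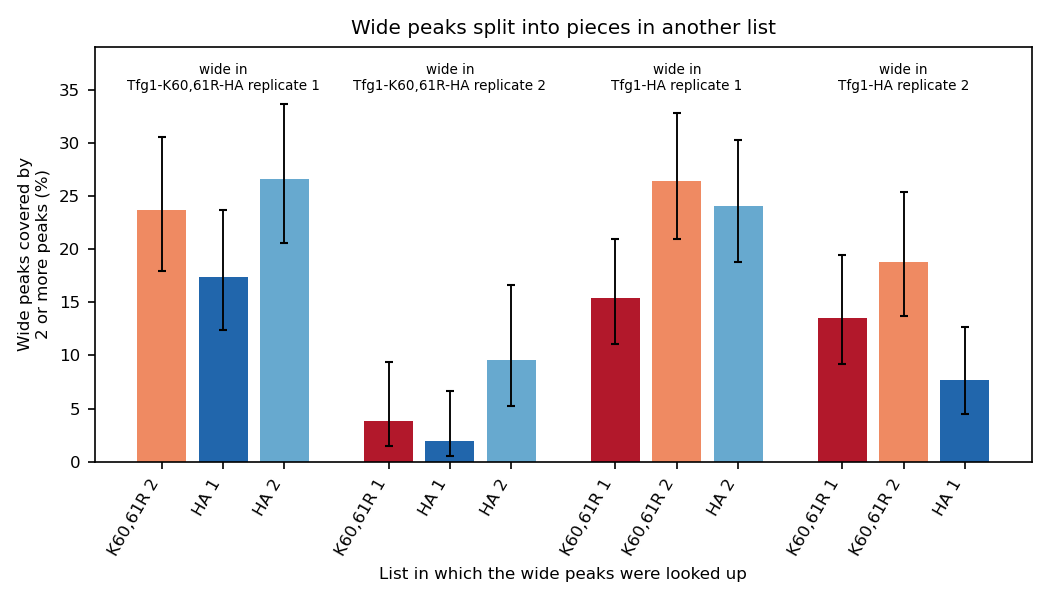
Share of the wide peaks of each list (groups of bars) that are covered by 2 or more peaks in each of the other lists (bars, colored by the list looked up), in percent, with 95% Wilson intervals as error bars. The shares of Tfg1-K60,61R-HA replicate 2 wide peaks, 1.90 to 9.52%, are the lowest group.

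In at least 1 other list, 74 of 173 and 14 of 105 wide peaks of Tfg1-K60,61R-HA were split, against 90 of 208 and 49 of 170 of Tfg1-HA, and in all 3 others 7 and 0, against 10 and 3. By kind, 27 of 32 and 0 of 4 Ty peaks of Tfg1-K60,61R-HA were split in another list, against 12 of 21 and 9 of 17 of Tfg1-HA. Of peaks filled by 1 ORF, 14 of 50 and 4 of 34 were split in Tfg1-K60,61R-HA, against 12 of 54 and 6 of 46 in Tfg1-HA. Of the rest, 33 of 91 and 10 of 67 were split in Tfg1-K60,61R-HA, against 66 of 133 and 34 of 107 in Tfg1-HA. Peaks filled by 1 ORF were thus split in a smaller share of cases than the rest in each list, with little between them in Tfg1-K60,61R-HA replicate 2.

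Among the 6 loci with the most pieces was NRG1 to BAP3 (chrIV:541208-552234), over NRG1, RPC11 and BAP3 on the minus strand and HEM13 on the plus strand. NRG1 encodes a repressor of glucose-repressed genes and BAP3 an amino acid permease. Tfg1-HA replicate 1 had 1 peak of 11027 bp there, while the locus held 2 and 3 peaks in Tfg1-K60,61R-HA and 3 in Tfg1-HA replicate 2. At PAA1, IPT1, SNF11 and TPS2 (chrIV:588633-597067) the pieces numbered 2 and 3 in Tfg1-K60,61R-HA, against 1 and 2 in Tfg1-HA, and the widest peak measured 4537 and 3088 bp, against 8363 and 4522 bp. TPS2 encodes the phosphatase of trehalose synthesis. At YNL058C, OCA2, POR1 and a Ty element (chrXIV:515324-522229) there were 3 and 2 pieces in Tfg1-K60,61R-HA, against 1 and 3 in Tfg1-HA, and the Tfg1-HA replicate 1 peak of 6906 bp was the only wide one. The locus with HSP60 held 1 peak in each Tfg1-K60,61R-HA list, against 2 and 5 in Tfg1-HA.

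Another locus joined in both Tfg1-HA lists was that of TDH3, the main glyceraldehyde-3-phosphate dehydrogenase gene (minus strand), with HIP1 (plus) and CRH1 (minus). It was 1 peak of 8344 and 8459 bp in Tfg1-HA, while the widest of 2 and 3 peaks was 4335 and 2899 bp in Tfg1-K60,61R-HA. The fold of these peaks was 11.6 and 13.5 in Tfg1-K60,61R-HA, against 8.76 and 8.13 in Tfg1-HA. The shorter peaks carry less of the flanks, and whether this bears on the fold was not tested. A break in the divergent stretch between CRH1 and HIP1 was common to both Tfg1-K60,61R-HA lists, and replicate 2 had a further break within HIP1. TDH3 was chosen after its values were seen.

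The 153 distinct break points measured 855 to 7543 bp with a median of 1185 bp, over the whole of the joined stretches. Joined gaps need not have a base common to all their lists. The longest break point, on chromosome X, and that at ARB1 had none, with gaps in 3 lists each. In 83 cases the gap was present in 1 list, in 52 in 2 and in 18 in 3. The centre lay within an ORF in 111 cases (72.5%), between divergent ORFs in 27 (17.6%), between tandem ORFs in 13 (8.50%) and between convergent ORFs in 2 (1.31%). Of all bases under wide peaks, 68.3% were in ORFs, 8.61% between divergent, 17.0% between tandem and 6.05% between convergent ORFs. Break points thus lay between divergent ORFs more often, and between tandem or convergent ORFs less often, than the bases under wide peaks do, by counts alone and with no test.

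Outside Ty sequence there were 112 break points, of which 22.3% lay between divergent ORFs, and the lists differed. Between divergent ORFs lay 12 of 40 and 20 of 63 gaps of Tfg1-K60,61R-HA (30.0% and 31.7%), against 0 of 19 and 12 of 55 gaps of Tfg1-HA (0.0% and 21.8%). In Tfg1-HA replicate 1 all 19 gaps outside Ty had their centre in ORFs. A gap was counted only inside a wide peak of another list, so these numbers also depend on which lists had wide peaks. ORFs that held a gap in 3 lists included IST2, RPN2, ADE16 and PRE2, each within the wide peak of a single list. Divergent gaps shared by the Tfg1-K60,61R-HA replicates and absent from Tfg1-HA were those between IPT1 and SNF11, CRH1 and HIP1, KDX1 and ELF1, and HTZ1 and PLB3.

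Genes of the cell wall were the list with the largest share under wide peaks. Of 19 cell wall genes, 12 and 11 lay under wide peaks in Tfg1-K60,61R-HA, against 12 and 12 in Tfg1-HA, and 11 did so in all 4 lists, beside 6.78% and 3.87%, against 8.43% and 6.56%, of all ORFs. They were CCW12, CWP1, CWP2, TIP1, PIR1, PIR3, HSP150, CIS3, GAS1, BGL2 and TOS1. Peaks at CCW12, with AHP1 and HOG1, measured 5823 and 3862 bp in Tfg1-K60,61R-HA, against 5072 and 4491 bp in Tfg1-HA, and the peak at GAS1, a glucanosyltransferase, measured 3414 and 3348 bp, against 3497 and 3480 bp. At the divergent pair PIR1 and PIR3 it measured 4850 and 4842 bp in Tfg1-K60,61R-HA, against 8352 and 5678 bp in Tfg1-HA.

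Ribosomal protein genes, which are short and strongly transcribed, lay under wide peaks mostly with neighbours. Of 137, 39 and 30 did so in Tfg1-K60,61R-HA, against 48 and 43 in Tfg1-HA, and 26 in all 4 lists. In 2 sets of neighbours, chosen after their values were seen, both duplicated copies lay under wide peaks, while for other duplicated genes, such as RPS24A and RPL1A, 1 copy did. RPS9B and RPL21A (tandem) lay under peaks of 3085 and 3025 bp in Tfg1-K60,61R-HA, against 3118 and 3108 bp in Tfg1-HA, and their paralogs RPS9A and RPL21B, with YPL080C and ATP4, under peaks of 4245 and 4125 bp, against 5189 and 4230 bp. RPL13B and RPS16A (divergent) lay under peaks of 3452 and 3333 bp in Tfg1-K60,61R-HA, against 3402 and 3400 bp in Tfg1-HA, and RPS16B and RPL13A, with SUB2 and RPP1A, under peaks of 4848 and 4130 bp, against 5223 and 5221 bp. Paralogs of this kind are close in sequence, and how reads were divided between copies was not tested.

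Of 17 genes of glycolysis, 8 and 5 lay under wide peaks in Tfg1-K60,61R-HA, against 8 and 5 in Tfg1-HA. Those in all 4 lists were PGI1, PFK1, PFK2 and FBA1. PFK2, a subunit of phosphofructokinase, is alone under its peak, which measured 3445 and 3446 bp in Tfg1-K60,61R-HA, against 3495 and 3502 bp in Tfg1-HA. FBA1, the aldolase, had MSN4, BLI1 and MPE1 beside it and peaks of 5231 and 3698 bp in Tfg1-K60,61R-HA, against 5959 and 5714 bp in Tfg1-HA. Of 12 genes of ethanol and acetate metabolism PDC1 was under wide peaks in all 4 lists, and ADH4 in some. None of 7 hexose transporter genes lay under a wide peak in any list. For so few genes this is near the share of all ORFs, 3.87 to 8.43% over the lists, and nothing is read from it.

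Of 11 translation elongation genes, 5 and 5 lay under wide peaks in Tfg1-K60,61R-HA, against 6 and 5 in Tfg1-HA, with TEF4, EFT2, YEF3 and EFB1 in all 4. The EFT2 peak was among the steadiest, at 3107 and 3096 bp in Tfg1-K60,61R-HA, against 3109 and 3124 bp in Tfg1-HA, and EFT1 is a copy of the same protein-coding gene. Of 16 chaperone genes, 7 and 6 lay under wide peaks in Tfg1-K60,61R-HA, against 7 and 4 in Tfg1-HA, with SSA1 and SSA2 in all 4. Of 10 histone genes, 2 and 2 did in Tfg1-K60,61R-HA, against 5 and 5 in Tfg1-HA. All ORFs under wide peaks were 6.78% and 3.87% in Tfg1-K60,61R-HA, against 8.43% and 6.56% in Tfg1-HA. HTA1 and HTB1 were in all 4 lists, and HHT1, HHF1 and HTZ1 in Tfg1-HA, at the loci described above. HHT1 and HHF1 share 1 locus, whose peaks of 2984 and 2790 bp in Tfg1-K60,61R-HA fell below the minimum. Its fold was higher there, at 8.43 and 6.72, against 6.23 and 5.49 in Tfg1-HA. Of 24 ergosterol genes, ERG11 alone lay under a wide peak, in each list, or 4.17%, within the 3.87 to 8.43% of all ORFs over the lists.

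Of 240 ORFs of 4000 bp or more, 39 and 7 lay under wide peaks in Tfg1-K60,61R-HA, against 24 and 20 in Tfg1-HA. Most of the 41 found under a wide peak in any list were ORFs of Ty elements. The others were RPO21, ARO1, GSC2, FAS1, HAP1, FKS1, ACC1, PDR5 and FAS2. These counts thus largely repeat those of the Ty elements above. The 6 in all 4 lists were FAS1, FAS2 and FKS1 and 3 ORFs of Ty elements. RPO21, the largest subunit of RNAPII itself (minus strand of chromosome IV), was covered over 100% and 12.2% of its length in Tfg1-K60,61R-HA, against 100% and 83.3% in Tfg1-HA. PDR5, a multidrug transporter, was covered over 0.0% and 96.1% in Tfg1-K60,61R-HA, against 100% and 100% in Tfg1-HA, and HAP1, a heme-responsive activator, over 94.5% and 0.0%, against 94.0% and 90.9%. At these 3 ORFs the 2 Tfg1-K60,61R-HA lists differed more from each other than the 2 Tfg1-HA lists did.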

How the data were processed

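RNAPII and input chromatin were sequenced from 2 cultures of each strain, giving 8 libraries in 4 groups, and 1 broad peak list was deposited per RNAPII library. Per the study's methods the authors trimmed paired-end reads, aligned them to sacCer3 with Bowtie2 2.3.5.1 and called broad peaks with MACS2 2.2.7.1 for each library against input, so replicates were not pooled. The deposited fold ratio is the authors' mean enrichment of a region over background, and p-values and q-values were deposited as −log10 numbers. The 894 repeated peaks were removed. The study states a single nominal read number per sample. Without reads, the depth reached by each library is unknown and the differential binding test of the study was not run. Handling of reads that map to several places is not given in the sources used here.

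Widths, overlaps and ORFs were computed with Python 3.11.15 and SciPy 1.17.1, plotted with matplotlib 3.10.9, and tested on simulated data. ORFs were 6002 nuclear coding genes of the R64 annotation, counted at 50% of their length, and peaks overlapped at 1 bp. Groups came from the labels. Lists were compared by exact permutation and exact sign-flip tests. The members and gene lists were chosen with earlier results of these data known. Named loci were those wide in all 4 lists by mean width (the first 15), the 3 widest peaks per list, those wide in 1 genotype only (up to 10 by difference in width), the 6 with most pieces, and the 2 peaks on either side of the minimum. The rule on sequences asked for gaps of at most 300 bp, and the lists had none. Alternatives were a width minimum of 2000 or 4000 bp, a fold or −log10 q-value of at least 2, repeated peaks kept, equal numbers of peaks, peaks joined at 300 bp, pieces of 200 bp, other overlaps for loci and ORFs, each list left out, groups by the case of names, a replicate block, and Ty peaks left out.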

Additional observations from a re-analysis of the deposited data

How the results depend on the processing

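Of 144 recomputed values, 129 kept their direction and stayed within the limits set for counts and shares. With the repeated peaks of Tfg1-K60,61R-HA replicate 1 kept, the difference in the number of wide peaks became 2.5 (as reported, -50) and that in length 1.08 kb (as reported, -229.9 kb), since that list then held both Tfg1-K60,61R-HA sets. When peaks under a fold of 2 were dropped, 40 loci were wide in all 4 lists (as reported, 85), 0 in Tfg1-K60,61R-HA only (2), gaps lay between ORFs in 72.6% of cases (mean over lists, 24.6% as reported), and the median fold of wide peaks exceeded that of the others by 0.113 (0.630). At that fold the Tfg1-K60,61R-HA minus Tfg1-HA difference was -46.5 wide peaks, -227.3 kb and -127.5 ORFs. It was -9.01 points in share of covered length and -2.89 points in the share split. For each the exact permutation p was 0.333, the smallest possible, so the labelled groups did not overlap in any of the 5. Before that filter, all peaks of any width numbered 1098 and 894 in Tfg1-K60,61R-HA, against 1257 and 1171 in Tfg1-HA, also without overlap. How many peaks of any width pass the fold was not counted, so nothing particular to wide peaks is read from these 5 values. The cause was not tested. Grouped by the case of the names, 1 locus was shared by the lower-case lists alone. The lower-case minus upper-case difference was -53 wide peaks, -311.3 kb and -143.5 ORFs. It was -7.64 points in share of covered length and -18.5 points in the share split. For each the exact permutation p was 0.333, the smallest possible, so these groups did not overlap in any of the 5 either. Letter case, the added m and replicate number mark the same pairs of lists, so a difference by one cannot be told apart from a difference by another.

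Leaving out 1 list at a time, the Tfg1-K60,61R-HA minus Tfg1-HA difference ranged from -84 to -16 in wide peaks, from -431.9 to -27.9 in kb, from -9.43 to 1.53 percentage points in share of covered length, from -218 to -43 in ORFs and from -16.9 to 7.51 percentage points in the share split. The share of covered length turned without Tfg1-K60,61R-HA replicate 2, at 1.53, and the share split turned without that list, at 7.51, and without Tfg1-HA replicate 1, at 1.88. Loci wide in all remaining lists numbered 85 to 129, the highest without Tfg1-K60,61R-HA replicate 2. Loci wide in Tfg1-K60,61R-HA only numbered 2 to 17, with 17 without Tfg1-K60,61R-HA replicate 2 and 11 without Tfg1-HA replicate 1, and in Tfg1-HA only 20 became 26 to 64, with 64 without Tfg1-K60,61R-HA replicate 1 and 46 without Tfg1-HA replicate 2.

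With the replicate number as a block the difference in wide peaks was -50, in length -229.9 kb, in share of covered length -3.95 points and in ORFs -130.5 (exact sign-flip permutation, p = 0.5, the smallest 2 pairs allow), and in the share split -4.71 points (p = 1). The correlation of width deviations between same-numbered lists was 0.104 over 238 loci. Such lists share a number and the letter case of their names. Joining peaks at gaps of at most 300 bp, or counting only gaps of at least that length, altered nothing, as no gap was so short. The depth reached is unknown, so an unequal depth of the libraries, which also alters where a caller ends a peak, cannot be told apart from the genotype.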

Other observations

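Noncoding genes also lay under wide peaks. With at least 50% of their length inside, tRNA genes numbered 16 and 6 in Tfg1-K60,61R-HA, against 22 and 16 in Tfg1-HA, and snoRNA genes 13 and 6, against 15 and 12. All genes of each kind in the annotation were not counted. Whether these numbers differ from the share of all ORFs under wide peaks was therefore not tested. tRNA genes are transcribed by RNA polymerase III, and most snoRNA genes by RNAPII.

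At ZRT1 the peak of Tfg1-K60,61R-HA replicate 1 was 1940 bp with a fold of 19.6, while it measured 4285 bp with a fold of 10.9 in Tfg1-K60,61R-HA replicate 2 and 4186 and 4157 bp with folds of 11.7 and 10.5 in Tfg1-HA. At TEF2, translation elongation factor 1 alpha, with MUD1 and CBP6, the peak measured 2016 and 3786 bp in Tfg1-K60,61R-HA, against 4147 and 2022 bp in Tfg1-HA. At both loci the lists with the narrower peak held 2 peaks. Both were chosen after their values were seen.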
